A study of Homo sapiens with 12 samples.

Results

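The replication-dependent histone genes were taken as every gene of the count table whose symbol belongs to the H2AC, H2BC, H3C or H4C series, or is H1-1 to H1-6. This rule used the symbols and no measured value, and it found 66 of the 59251 genes. They were 6 H1, 16 H2A, 17 H2B, 13 H3 and 14 H4 genes. The study treated HL-60 cells, a human acute myeloid leukemia line, for 48 h in 10% serum with 1 µM all-trans retinoic acid (ATRA), 1 µM palbociclib, which inhibits CDK4 and CDK6 (CDK4/6i), or the pair of them (CDK4/6i+ATRA), and left one group non-treated. RNA-Seq was performed on 3 biological replicates per group, 12 libraries in all. All groups came from this single cell line, and p-values measure the spread between these samples.

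Replication-dependent histone genes supply the H2A, H2B, H3 and H4 core histones and the H1 linker histones that package newly made DNA. Their transcription and mRNA stability peak in S phase, under the coactivator NPAT, which cyclin E and CDK2 phosphorylate. Their mRNAs are not polyadenylated but end just past a conserved stem-loop, which the stem-loop binding protein SLBP holds and which the U7 small nuclear ribonucleoprotein helps to cleave. Some of these genes can also make a longer mRNA with a poly(A) tail in cells that do not divide. Palbociclib blocks entry into S phase, and ATRA drives differentiation of myeloid leukemia cells.

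The stem-loop is shown here because the members are grouped below by where their annotated gene ends relative to it. It was searched as 16 bases with arms of 6 bases and a loop of 4 bases, and the capitals mark the arms. H4C15 and H2BC4 held 2 matches each, and for them the last match is given. Whether that match is the gene's own stem-loop was not tested.
Stem-loop of 38 members, among them H1-2, H2AC6 and H2AC17: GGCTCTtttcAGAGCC
Stem-loop of 9 H4 genes, among them H4C3 and H4C8: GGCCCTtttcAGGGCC
Stem-loop of 9 members, among them H2BC12, H2BC4 and H2BC5: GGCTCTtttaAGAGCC
Stem-loop of H4C9, H4C12 and H4C14: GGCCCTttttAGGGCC
Stem-loop of H2AC11 and H4C15: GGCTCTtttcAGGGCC
Stem-loop of H2AC20: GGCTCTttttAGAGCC
Stem-loop of H2AC15: GGTTCTtttcAGAGCC
The annotated gene ended within 50 bases of such a stem-loop in 57 of the 66 members (86.4%), against 24 of 58380 other genes on primary chromosomes (0.041%). The polyadenylation signal AATAAA lay in the last 50 bases of 8 members (12.1%), against 41.1% of the other genes.

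The other 9 members did not end at the stem-loop. H2BC5, H2BC12, H2BC21, H2BC4 and H4C15 were annotated 590, 782, 1729, 1971 and 5814 bases past it, and each had AATAAA near its end. In H2BC4 and H4C15 the distance is from the last of 2 matches, which may not be the gene's own. H2BC18 was annotated 578 bases past it without AATAAA. H3C6 was annotated long and H2BC10 and H4C13 short, and none of these 3 held a match.

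Promoters of 61 members were in the RefSeq promoter table (GRCh38.p14), and 3 motifs were searched on both strands of the 300 bases around each start. TATAAA, the TATA box, lay in 67.2% of these members and in 11.5% of all 35116 promoters. CCAAT lay in 85.2% of them, in each H1, H2A, H2B and H3 promoter found but in 3 of 12 H4 promoters, and in 34.6% of all promoters. The octamer ATTTGCAT lay in 73.3% of H2A and 82.4% of H2B promoters, in no H1 or H4 promoter and in 1.77% of all promoters. The 250 bases before the start are shown for 3 members whose levels took different courses, with these motifs in capitals on either strand.
H2AC6, GRCh38.p14 chr6:26123922-26124171, plus strand, with H2BC4 starting at its other end: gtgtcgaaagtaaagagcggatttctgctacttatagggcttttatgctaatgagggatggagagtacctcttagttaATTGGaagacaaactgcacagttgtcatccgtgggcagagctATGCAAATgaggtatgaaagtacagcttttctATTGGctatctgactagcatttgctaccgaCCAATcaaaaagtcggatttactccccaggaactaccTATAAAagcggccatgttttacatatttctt
H2BC12, GRCh38.p14 chr6:27146859-27147108, minus strand, with H2AC12 starting at its other end: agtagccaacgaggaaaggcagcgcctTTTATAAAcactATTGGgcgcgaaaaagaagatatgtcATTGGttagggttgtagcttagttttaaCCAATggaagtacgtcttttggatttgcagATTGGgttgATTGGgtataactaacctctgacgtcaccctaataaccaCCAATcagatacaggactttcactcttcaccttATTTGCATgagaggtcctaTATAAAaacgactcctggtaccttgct
H2AC17, GRCh38.p14 chr6:27893186-27893435, minus strand, with H2BC17 starting at its other end: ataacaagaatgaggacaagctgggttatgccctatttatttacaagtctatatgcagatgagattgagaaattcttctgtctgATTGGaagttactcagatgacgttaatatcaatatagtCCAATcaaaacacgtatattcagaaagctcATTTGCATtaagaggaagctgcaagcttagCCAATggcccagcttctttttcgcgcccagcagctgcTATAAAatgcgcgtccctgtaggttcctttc
All 3 stretches held each of the 3 motifs.

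Total counts ranged from 12230923 to 18679544 per library and were lowest with CDK4/6i+ATRA. The HL-60 label was checked against 9 myeloid markers, whose summed level was 7117 to 7469 CPM (read counts scaled to library size by the TMM method) in non-treated libraries, 4126 to 4255 CPM in CDK4/6i libraries and 961 to 1084 CPM with ATRA or CDK4/6i+ATRA. A single marker reached 6666 CPM of the non-treated sum, and of the 6 markers tested 1 was higher and 4 were lower than in non-treated cells, both for ATRA and for the combination. ELANE, PRTN3 and AZU1, defining promyelocyte genes among them, were listed at 0, and all 3 are also listed on alternate contigs. Erythroid markers were at 0, the epithelial and fibroblast lists summed to at most 1.01 CPM, the T cell list to at most 3.10 CPM and the B cell list to at most 25.0 CPM. A list of 19 RNAs that carry no poly(A) tail summed to 9.70 to 22.5 CPM, with 7 of them at 0, and whether libraries were made by poly(A) selection is not given in the sources used here. Whether this bears on the low level of the histone genes was not tested.

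The members lay in 3 clusters, with 34 on chromosome 6 between 25.7 and 26.3 Mb, 21 on chromosome 6 between 27.1 and 27.9 Mb and 11 on chromosome 1. In hg38, H2BC12 lies at chr6:27138293-27146858 on the minus strand in 2 exons, H2BC4 at chr6:26113170-26123926 on the minus strand in 2 exons and H2BC5 at chr6:26158121-26171349 on the plus strand in 3 exons. H4C15 (chr1:149844488-149861240, 3 exons), H2BC18 (chr1:149782689-149812370, 2 exons) and H2BC21 (chr1:149884459-149886682, 1 exon) lie on the minus strand of chromosome 1. The members with a single exon ending at the stem-loop include H1-2 (chr6:26055740-26056470, minus), H1-4 (chr6:26156329-26157115, plus), H2AC6 (chr6:26124172-26124690, plus), H4C3 (chr6:26103933-26104337, plus) and H4C8 (chr6:26285126-26285534, minus). Unlike 4379 genes of the table, none was listed on an alternate contig. They held 8231 counts over all libraries, 422 to 1254 per library, of which H2BC12 held 3694. No count was found for 19 members in any library, 47 had at least 1 count and 11 had a count in all 12 libraries. In 10 members over 50% of the 75-base windows were found elsewhere in the gene set, and 6 of these were at 0. H2AC18, which held 5 counts, and H2AC19, H3C14, H3C15 and H4C14, which held none, had every window elsewhere too, so which gene such reads belong to is uncertain. Only 12 members passed the expression filter and were tested, and this filter favours members that were high in at least 1 group. H4C8 passed it only through the CDK4/6i+ATRA libraries and H2BC18 only through the non-treated libraries, where each was high, so their calls against those groups are given as values and support nothing about the members. H1-4 and H4C3 reached the minimum of this filter in all 3 non-treated and all 3 ATRA libraries and in none with CDK4/6i. Their falls with CDK4/6i are therefore given as values too. A floor of 3 counts corresponded to 0.156 to 0.275 CPM, and most members lay near it, so their changes were often not detectable at this depth.

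In non-treated cells, H1-2, a linker histone gene, was the most abundant member per length, with a level of 7.18 CPM per kb. H2BC12 (5.64 CPM per kb) and H4C3 (5.48 CPM per kb) were next. In CPM, H1-2 had 6.67, 4.01 and 5.07 in the 3 libraries, H2BC12 had 8.05, 7.21 and 6.31, and H4C3 had 1.14, 2.76 and 2.76. H2AC6 (1.79 CPM per kb), H2AC17 (1.57), H1-4 (1.19), H3C10 (1.10), H2BC18 (1.09) and H2AC8 (1.05) followed, and along this order the libraries of each gene and the next overlapped per length, except between H4C3 and H2AC6. With CDK4/6i+ATRA the order was H2BC12 at 45.9 CPM per kb, H2AC6 at 17.1, H1-2 at 9.0 and H2BC5 at 5.27. H2BC12 took 24.0% ± 1.87 (SD, n = 3) of the members' counts in non-treated libraries and 27.2% ± 4.44 in ATRA libraries, against 56.2% ± 1.15 under CDK4/6i and 58.9% ± 1.63 under the combination. The groups with and without CDK4/6i did not overlap in this share.

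**Figure D1:**
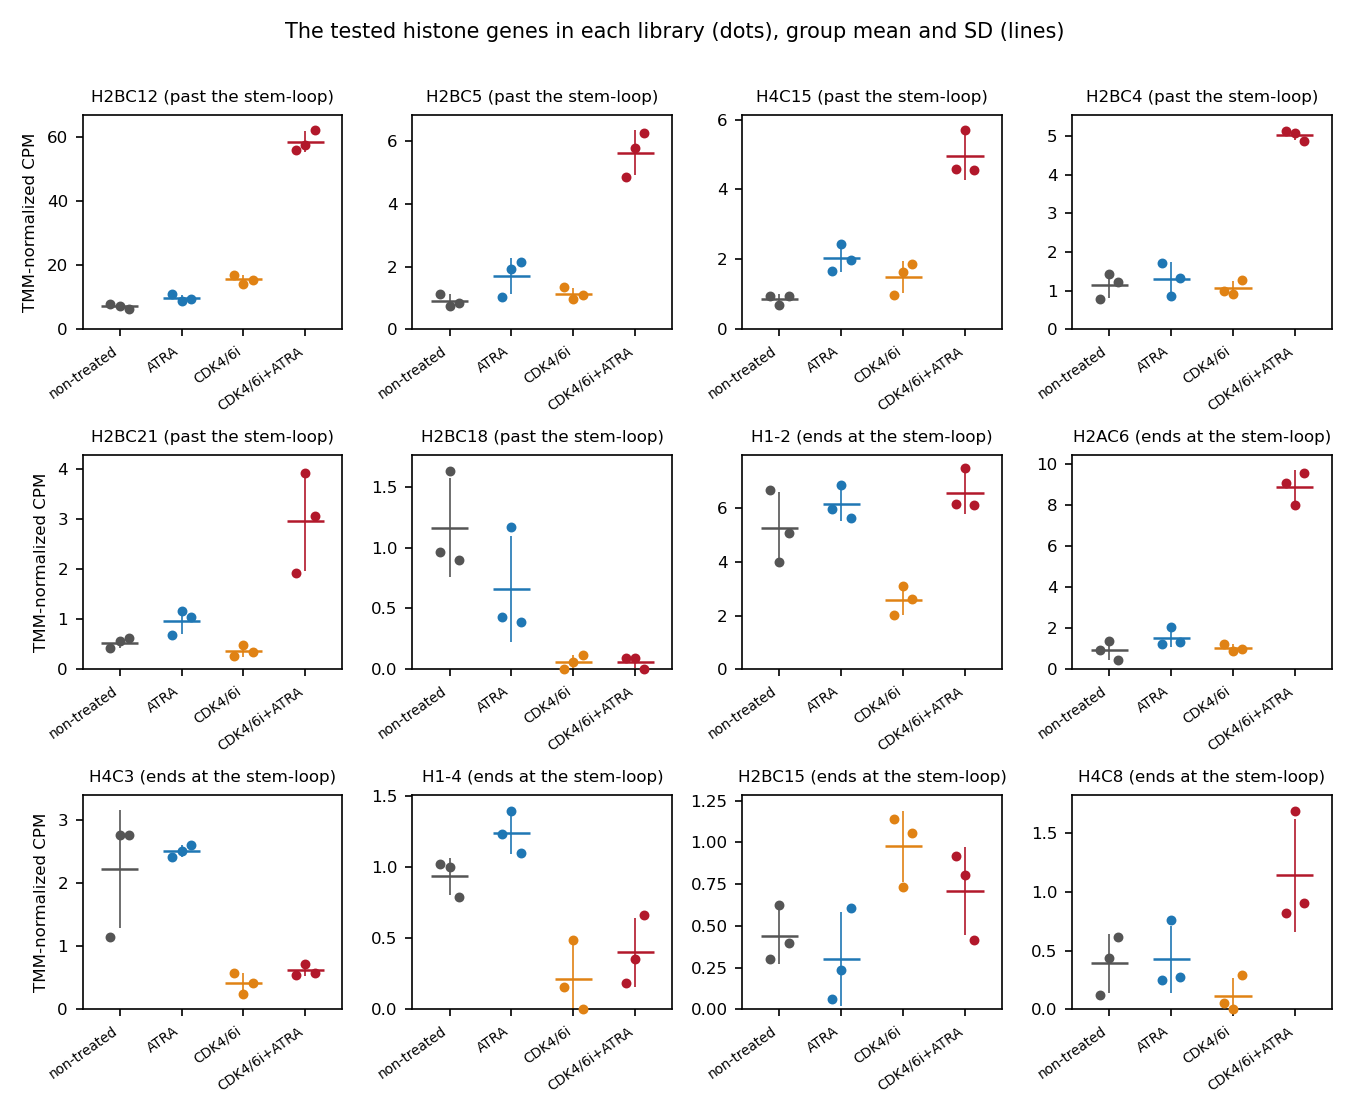
TMM-normalized CPM (y axis) of the 12 tested histone genes in each library (dots) of the 4 groups (x axis), with the mean and SD of each group as lines. H2BC12, H2BC5, H4C15, H2BC4 and H2AC6 lie higher in all 3 CDK4/6i+ATRA libraries than in any other library, whereas H2BC18, H4C3 and H1-4 lie low in both groups with CDK4/6i.

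With ATRA alone H2BC12, H4C15, H2BC5 and H2AC6 rose. In these samples of many cells, fewer cells in S phase and less histone mRNA per cell cannot be told apart, here and below. The call was made for 4 of the 12 tested members, all higher, against 67.6% of all 13318 genes tested (32.1% higher and 35.5% lower), by the quasi-likelihood test of edgeR with p adjusted after Benjamini and Hochberg. No member was lower at an unadjusted p of 0.05 (0 of 12), nor in DESeq2 (0). H2BC12 rose from the values above to 10.97, 8.80 and 9.39 CPM (log2 fold change 0.43, SE 0.12, adjusted p = 0.00102). H4C15, an H4 gene, stood at 0.962, 0.690 and 0.957 CPM in non-treated and at 1.66, 2.45 and 1.99 CPM in ATRA-treated cells (log2 fold change 1.22, SE 0.31, adjusted p = 0.000471). The annotated H4C15 spans H2AC19, H3C15 and the pseudogene H2BC20P, so its reads may belong to these. H2BC5, an H2B gene, went from 1.14, 0.752 and 0.845 CPM to 1.05, 1.92 and 2.15 CPM (log2 fold change 0.91, SE 0.31, adjusted p = 0.00948), and its groups overlapped. H2AC6, an H2A gene, went from 0.962, 1.38 and 0.451 CPM to 1.23, 2.04 and 1.33 CPM (log2 fold change 0.74, SE 0.32, adjusted p = 0.0409), again with overlap. The call of H2BC5 was lost without ATRA replicate 3 (adjusted p = 0.082), and that of H2AC6 without non-treated replicate 1, non-treated replicate 3 or ATRA replicate 2 (adjusted p = 0.0627, 0.301 and 0.253, edgeR). Conversely, H1-2 without non-treated replicate 1 (0.43, adjusted p = 0.041), H2BC21 without ATRA replicate 1 (1.04, adjusted p = 0.041) and H2BC18 without ATRA replicate 2 (-1.49, adjusted p = 0.0129) passed the threshold, whereas with all libraries they did not. H2AC17 did not pass the filter with all libraries, but it passed and was lower without non-treated replicate 3 (-1.38, adjusted p = 0.0217). It held 38 counts in non-treated and 18 in ATRA-treated cells (ratio of pooled CPM 0.463, 95% counting interval 0.249 to 0.832). Such intervals cover counting error only.

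With CDK4/6i alone H1-2, H1-4, H4C3 and H2BC18 fell, and H2BC12 rose. The call was made for 7 of the 12 tested members, 3 higher and 4 lower, against 56.2% of all genes tested (28.3% higher and 27.9% lower). Without H2BC18, which the filter kept through the non-treated group, 3 were lower. Of these, H1-4 and H4C3 reached the filter's minimum only in libraries without CDK4/6i, which leaves H1-2. Leaving out 1 library let 14 or 15 members through the filter and gave 1 to 3 higher and 5 to 7 lower calls, with 1 higher without non-treated replicate 1 or 3 or CDK4/6i replicate 3, and 7 lower without CDK4/6i replicate 3 or CDK4/6i+ATRA replicate 1. Over the 13651 to 13739 genes then tested, 7000 to 7620 were called, 49.5% to 50.4% of them higher. The lower calls include H2AC17 and H3C12, which did not pass the filter with all libraries, so these ranges support nothing about the members. H2BC12 rose to 17.1, 14.3 and 15.4 CPM, above every non-treated and ATRA library (log2 fold change 1.12, SE 0.11, adjusted p = 7.04e-13, edgeR). H1-2 fell to 2.02, 3.12 and 2.63 CPM, below every non-treated library (log2 fold change -1.03, SE 0.19, adjusted p = 1.08e-05). H4C3 fell to 0.570, 0.244 and 0.410 CPM (log2 fold change -2.40, SE 0.38, adjusted p = 3.1e-07). H1-4, also a linker histone gene, fell from 1.02, 1.00 and 0.788 CPM to 0.156, 0.489 and 0 CPM (log2 fold change -2.12, SE 0.54, adjusted p = 0.000812). Leaving out 1 library gave H1-4 values of -3.39 to -1.56, and the first of these was without CDK4/6i replicate 2. H2BC18 fell from 16, 26 and 16 counts to 0, 1 and 2 counts (adjusted p = 7.21e-07, ratio of pooled CPM 0.0494, 95% counting interval 0.0099 to 0.152). Its fitted log2 fold change of -4.17 was -5.01 without CDK4/6i replicate 3, which held 2 of these 3 counts. H2BC18 overlaps LOC124904411 on its own strand and the Fc receptor gene FCGR1A on the other strand, and whether the authors counted by strand is not given in the sources used here.

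The other rises with CDK4/6i alone were less stable. H2BC15 went from 0.301, 0.627 and 0.394 CPM to 1.14, 0.733 and 1.05 CPM (log2 fold change 1.15, SE 0.47, adjusted p = 0.0321). Its call was lost without non-treated replicate 1 or 3 or CDK4/6i replicate 1 or 3 (adjusted p = 0.134, 0.0918, 0.113 and 0.0798), and in DESeq2 (adjusted p = 0.0675). H4C15 reached 0.985, 1.65 and 1.87 CPM (log2 fold change 0.76, SE 0.32, adjusted p = 0.0398, edgeR). Its call was lost without any 1 non-treated replicate (adjusted p = 0.0553, 0.141 and 0.0563) and without CDK4/6i replicate 2 or 3 (adjusted p = 0.108 and 0.197). H4C8, an H4 gene at 2, 7 and 11 counts in non-treated and 1, 0 and 5 counts in CDK4/6i-treated cells, had a log2 fold change of -1.73 (SE 0.77) with adjusted p = 0.0504. It passed the threshold without non-treated replicate 1 (adjusted p = 0.0186), ATRA replicate 2 (0.0482), CDK4/6i replicate 3 (0.00711) or CDK4/6i+ATRA replicate 1 (0.0492). Leaving out 1 library gave H4C8 values of -3.49 to -1.22, the first of these without CDK4/6i replicate 3. H2AC6 (0.21, SE 0.35), H2BC4 (-0.12, SE 0.33), H2BC5 (0.33, SE 0.34) and H2BC21 (-0.56, SE 0.50) did not pass.

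The 54 untested members summed to 8.29, 9.22 and 6.42 CPM in non-treated cells and to 3.84, 1.89 and 2.17 CPM in CDK4/6i-treated cells. The filter had taken out the members that were high in any group, so these sums are a description of what it left and carry no test. Of the 57 members ending at the stem-loop, 28 had at least 10 counts in both groups together, and the pooled ratio was below 1 in 23 of them, with the whole counting interval below 1 in 18 and above 1 in H2BC15. Of all 16475 genes with at least 10 such counts, 28.9% had the whole interval below 1 and 30.1% above 1. H2AC17 went from 38 counts to 1 (ratio 0.0251, counting interval 0.00062 to 0.149) and H2AC8 from 27 to 4 (0.141, 0.036 to 0.406). H2BC8, at 14 counts in non-treated cells, was at 0 in CDK4/6i-treated cells, which is at least 4.89-fold lower against a floor of 3 counts over the group. H4C1 and H2AC21 went from 12 counts each to 0 (at least 4.19-fold lower). H3C10 went from 27 to 9 counts (ratio 0.318, counting interval 0.132 to 0.697), H3C12 from 16 to 2 and H4C5 from 17 to 3. H3C4 (16 and 18 counts) and H4C12 (16 and 13 counts) had intervals that included 1. A fit without the expression filter, over 47 members, called 15, of which 14 were lower and H2BC12 was higher, against 25.5% of 28097 genes (12.5% higher and 13% lower). Where at least 10 counts were asked of every library, 3 of the 5 members then tested were called with CDK4/6i, against 65.5% of 10296 genes.

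**Figure D2:**
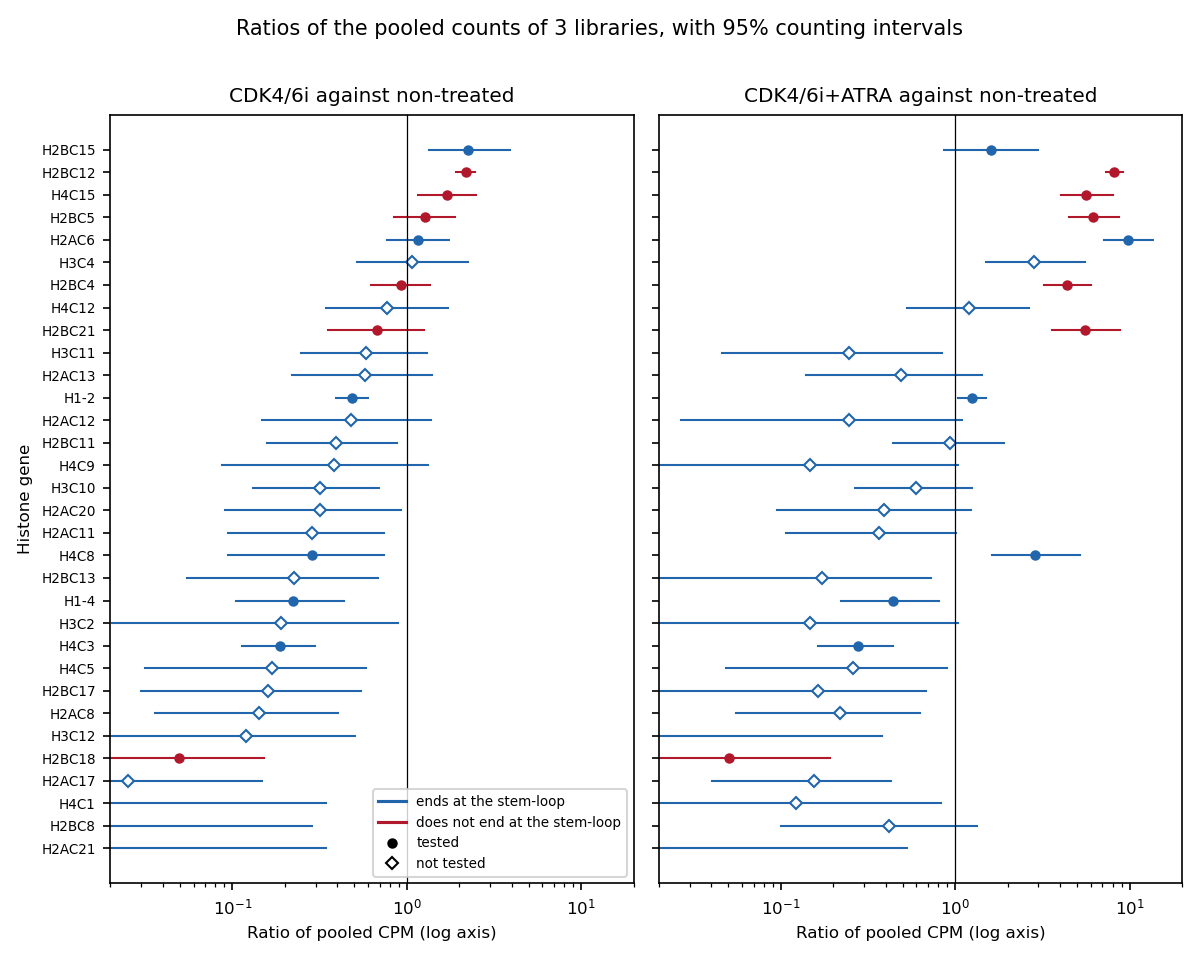
Ratio of the pooled CPM of 3 CDK4/6i (left) or CDK4/6i+ATRA libraries (right) to that of 3 non-treated libraries, on a log axis, with 95% counting intervals cut off at 0.02, for the 32 histone genes (y axis) with at least 10 pooled counts in both comparisons. Filled circles mark tested and open diamonds untested members, blue marks members ending at the stem-loop and red the others, and a line with no symbol is a ratio of 0. H2BC12, H2BC5, H4C15, H2BC4, H2BC21, H2AC6, H3C4, H4C8 and H1-2 lie above 1 with CDK4/6i+ATRA, with whole intervals above 1.

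With CDK4/6i+ATRA, H2BC12, H2BC4, H2BC5, H2BC21, H2AC6, H4C15 and H4C8 rose, and H4C3, H1-4 and H2BC18 fell. Of the 12 tested members, 7 were higher and 3 lower than in non-treated cells, against 81.7% of all genes called (41% higher and 40.7% lower). Among the 4 tested RNAs without a poly(A) tail 1 was higher and 0 were lower here, with a median log2 fold change of 0.62, and their part was not tested. Without H4C8 and H2BC18, which the filter kept through the combination and the non-treated group, 6 members were higher and 2 lower. Both of the lower ones, H1-4 and H4C3, reached the filter's minimum only in libraries without CDK4/6i. Leaving out 1 library, with 14 or 15 members tested, gave 7 or 8 higher and 3 to 5 lower calls, with 5 lower without non-treated replicate 3, ATRA replicate 1, any 1 CDK4/6i replicate or CDK4/6i+ATRA replicate 3. Over the 13651 to 13739 genes then tested, 10678 to 11102 were called, 50.1% to 50.7% of them higher. The calls include H3C4 as higher and H2AC17 and H3C12 as lower, which did not pass the filter with all libraries, so these ranges support nothing about the members. H2BC12 reached 55.9, 57.6 and 62.1 CPM (log2 fold change 3.03, SE 0.09, adjusted p = 1.51e-32, edgeR). H2AC6 reached 9.07, 8.02 and 9.59 CPM, far from the non-treated libraries (log2 fold change 3.27, SE 0.26, adjusted p = 4.06e-16). H2BC4, which shares the promoter region shown above with H2AC6, went from 0.781, 1.44 and 1.24 CPM to 5.13, 5.08 and 4.88 CPM (log2 fold change 2.12, SE 0.27, adjusted p = 1.03e-09). H2BC5 reached 4.86, 5.79 and 6.28 CPM (log2 fold change 2.62, SE 0.28, adjusted p = 3.97e-12). H2BC21, an H2B gene on chromosome 1, went from 0.421, 0.564 and 0.619 CPM to 1.92, 3.92 and 3.06 CPM (log2 fold change 2.45, SE 0.37, adjusted p = 6.18e-08). H4C15 reached 4.58, 5.70 and 4.55 CPM (log2 fold change 2.49, SE 0.28, adjusted p = 3.11e-11). In each of these 6 genes, listed because they were called, all 3 CDK4/6i+ATRA libraries lay above all other libraries. The share of all genes separated in this way was not counted, so this describes the values only.

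H4C8 was the remaining rise, from 0.120, 0.439 and 0.619 CPM to 0.825, 1.69 and 0.909 CPM (log2 fold change 1.51, SE 0.53, adjusted p = 0.00893, edgeR). Its call was lost without non-treated replicate 1 (adjusted p = 0.0777) or CDK4/6i+ATRA replicate 2 (adjusted p = 0.103). H4C3 was at 0.550, 0.713 and 0.578 CPM (log2 fold change -1.84, SE 0.39, adjusted p = 3.02e-05), below every non-treated library. H2BC18 held 1, 1 and 0 counts (adjusted p = 4.47e-06, ratio of pooled CPM 0.0507, 95% counting interval 0.006 to 0.192). H1-4 was at 0.183, 0.357 and 0.661 CPM (log2 fold change -1.18, SE 0.53, adjusted p = 0.038), and its call was lost without non-treated replicate 1 or 2 (adjusted p = 0.0827 and 0.0743), without CDK4/6i+ATRA replicate 1 or 2 (adjusted p = 0.168 and 0.0973) and in DESeq2 (adjusted p = 0.0524). H1-2 was at 6.14, 7.49 and 6.12 CPM, a log2 fold change of 0.32 (SE 0.18, adjusted p = 0.093), and passed without non-treated replicate 1 (0.52, adjusted p = 0.0145). H2BC15 had a log2 fold change of 0.67 (SE 0.53, adjusted p = 0.24).

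The untested members, again as the filter left them, summed to 3.30, 3.65 and 4.46 CPM with CDK4/6i+ATRA. Of 27 members ending at the stem-loop with at least 10 counts, the pooled ratio to non-treated cells was below 1 in 21, with the whole counting interval below 1 in 11 and above 1 in 4, namely H1-2, H2AC6, H3C4 and H4C8. Over all 16635 genes with at least 10 such counts these shares were 36.6% below 1 and 40.4% above 1. H3C12 went from 16 counts to 0 (at least 3.63-fold lower) and H2AC21 from 12 to 0 (at least 2.72-fold lower). H2AC17 went from 38 to 4 counts (ratio 0.155, counting interval 0.0401 to 0.43). H3C4 went from 16 to 31 counts (ratio 2.85, counting interval 1.51 to 5.58), and the H2AC7 gene, which lies inside it, was at 0. Without the expression filter, 8 members were higher and 8 lower, against 41.2% of 28097 genes called (19.8% higher and 21.4% lower). With at least 10 counts in every library, 4 of 5 members tested were called, against 86.5% of 10296 genes, and 5, 4 and 4 of these 5 in the comparisons of the combination with CDK4/6i, with ATRA and for the interaction below, against 83.7%, 77% and 60.8%.

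The combination was also compared with either drug alone. Against CDK4/6i, 8 of the 12 tested members were higher and none lower, against 78.6% of all genes called (39.1% higher and 39.5% lower). Without H4C8, kept by the filter through the combination group, 7 were higher. No member was lower in edgeR at an unadjusted p of 0.05 (0 of 12) or in DESeq2 (0). Of all calls in this comparison 49.8% were higher, and 36.7% when scaled by library size alone. The log2 fold changes were 1.35 for H1-2 (SE 0.20, adjusted p = 3.74e-08), 3.06 for H2AC6 (SE 0.25, adjusted p = 1.42e-15), 1.91 for H2BC12 (SE 0.08, adjusted p = 2.64e-26), 2.23 for H2BC4 (SE 0.27, adjusted p = 3.22e-10) and 3.24 for H4C8 (SE 0.66, adjusted p = 2.26e-05). The H4C8 value was 4.99 without CDK4/6i replicate 3, which held 5 of the 6 counts of its group. H2BC5 (2.29), H2BC21 (3.01) and H4C15 (1.73) also rose. H4C3 (0.55, SE 0.51, adjusted p = 0.326) did not pass, H2BC18 held at most 3 counts in either group, and H1-4 (0.94, SE 0.69, adjusted p = 0.211) passed without CDK4/6i replicate 2 (2.20, adjusted p = 0.0224). The list of RNAs without a poly(A) tail moved in the same direction: each of the 4 tested was higher in the combination than under CDK4/6i, and the list summed to 15.3 to 22.5 CPM against 9.70 to 13.3 CPM. Its part in the histone values was not tested.

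Against ATRA, 7 members were higher and 3 lower with CDK4/6i+ATRA, against 69.8% of all genes called (36.9% higher and 32.8% lower), and 6 were higher without H4C8, for the same reason. H1-4 and H4C3, among the lower ones, reached the filter's minimum only in libraries without CDK4/6i. Of the 4 tested RNAs without a poly(A) tail 2 were higher here too, with a median log2 fold change of 0.59, and their part was not tested. Of all calls here 53% were higher, and 31.6% when scaled by library size alone. H2BC12 (2.59, SE 0.09), H2AC6 (2.53, SE 0.24), H2BC4 (1.94, SE 0.26), H2BC5 (1.71, SE 0.25), H2BC21 (1.61, SE 0.34), H4C15 (1.27, SE 0.24) and H4C8 (1.40, SE 0.52) were higher on the log2 scale. H4C3 (-2.02, SE 0.38) and H1-4 (-1.59, SE 0.51) were lower, and so was H2BC18, with 2 counts against 34 (ratio of pooled CPM 0.0885, 95% counting interval 0.0103 to 0.345). The fitted log2 fold change of H2BC18 was -3.33, and -2.65 without ATRA replicate 2. The adjusted p ranged from 3.06e-30 for H2BC12 to 0.0157 for H4C8 (edgeR). The H4C8 call was lost without ATRA replicate 1 or 3 (adjusted p = 0.08 and 0.0789), without CDK4/6i+ATRA replicate 2 (0.153) and with library size alone as scaling (0.0699), and its value was 2.08 without ATRA replicate 2. H2BC15 (1.16, SE 0.57, adjusted p = 0.0638) passed without ATRA replicate 3 (2.17, adjusted p = 0.00716) or CDK4/6i+ATRA replicate 3 (1.45, adjusted p = 0.0342).

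Whether the 2 drugs together did more or less than the sum of their log2 effects was tested as an interaction. The call was made for 7 of 12 members, all positive, against 51.4% of all genes tested (24.5% positive and 27% negative). Among the 4 tested RNAs without a poly(A) tail the interaction was positive in 2 and negative in 0, with a median of 0.96, and their part in the histone values was not tested. The interaction was 2.32 for H2AC6 (SE 0.43, adjusted p = 1.04e-05, edgeR), 2.17 for H2BC21 (SE 0.60, adjusted p = 0.00219) and 2.06 for H2BC4 (SE 0.42, adjusted p = 5.41e-05). H2BC12 (1.47, SE 0.15, adjusted p = 2.8e-12), H2BC5 (1.38, SE 0.42, adjusted p = 0.0055) and H1-2 (1.13, SE 0.26, adjusted p = 0.000292) were also called. H4C8 (3.13, SE 0.92, adjusted p = 0.00374) was kept by the filter through the CDK4/6i+ATRA group, and without it 6 members were called. Leaving out 1 library gave H4C8 values of 2.61 to 4.88, with adjusted p up to 0.0376, and it was 3.81 without ATRA replicate 2 and 4.88 without CDK4/6i replicate 3. In H1-2 the CDK4/6i+ATRA libraries overlapped the non-treated ones and the CDK4/6i libraries lay below both, whereas H2BC12 rose with each drug and further with both. H4C15 (0.51, SE 0.41), H4C3 (0.38, SE 0.58), H1-4 (0.53, SE 0.78) and H2BC15 (0.01, SE 0.53) did not pass, nor did H2BC18, whose groups with CDK4/6i held at most 3 counts. Leaving out 1 library gave interactions of -0.05 to 1.79 for H1-4 and -0.44 to 1.02 for H2BC15. Scaling by library size alone moved the all-gene median for the combination against non-treated cells from 0.02 to -0.25 (log2), and the share of positive calls among all interactions from 47.5% to 18.5%. These 7 members passed with that scaling too.

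Summed over genes, the members that end at the stem-loop and the others took different courses. The 57 members ending at the stem-loop summed to 18.1 ± 1.42 CPM in non-treated, 19.4 ± 2.75 in ATRA-treated, 7.99 ± 0.899 in CDK4/6i-treated and 22.1 ± 1.00 in CDK4/6i+ATRA-treated cells (mean ± SD, n = 3). Relative to the non-treated mean this was 0.442 ± 0.0497 with CDK4/6i and 1.22 ± 0.0555 with the combination. The RNAs without a poly(A) tail summed to 13.1 to 19.5 CPM in non-treated and 9.70 to 13.3 CPM in CDK4/6i libraries, where 1 of 4 tested was lower and their median log2 fold change was -0.61, and their part here was not tested. For the combination this was 1.21 ± 0.072 without H1-2 and 0.48 ± 0.0506 without H1-2, H2AC6 and H4C8, and the latter set stood at 0.368 ± 0.111 with CDK4/6i. The 9 other members summed to 11.9 ± 0.887, 16.6 ± 0.194, 19.7 ± 1.18 and 77.2 ± 4.28 CPM in the same order of groups. Without H2BC12 the remaining 8 stood at 1.46 ± 0.228 of their non-treated sum with ATRA, at 0.881 ± 0.124 under CDK4/6i and at 3.97 ± 0.426 under both drugs. This grouping by gene end and the removal of single genes were chosen after the values were seen, and they carry no test. By the annotated length, 52 members of at most 700 bases with 1 exon stood at 0.414 ± 0.141 of their non-treated sum with CDK4/6i and at 1.23 ± 0.027 under both drugs, and the 14 longer members at 1.25 ± 0.0221 and 4.63 ± 0.271. Without H2AC6 the shorter members stood at 0.352 ± 0.137 and 0.503 ± 0.0625, and without H2BC12 the longer ones at 0.655 ± 0.101 and 2.38 ± 0.252.

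**Figure D3:**
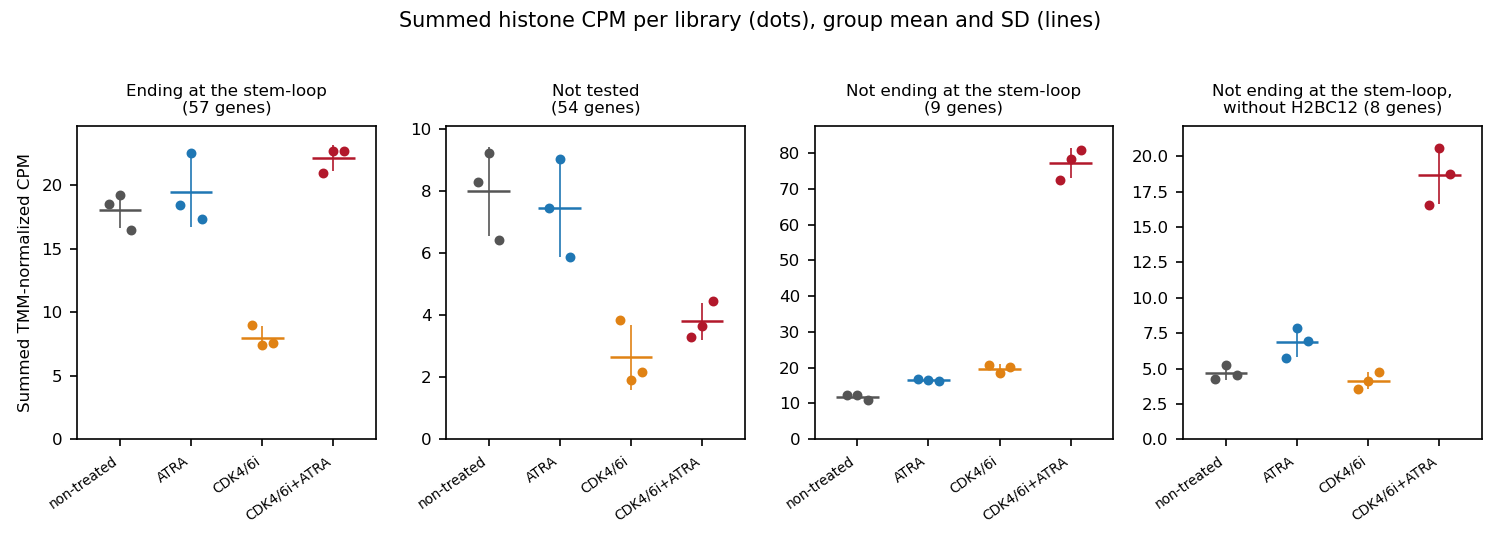
Summed TMM-normalized CPM (y axis) of groups of histone genes in each library (dots) of the 4 treatments (x axis), with mean and SD as lines. The untested members, from which the filter took those high in any group, lie lower in both groups with CDK4/6i, and the 9 members that do not end at the stem-loop lie highest with CDK4/6i+ATRA, with or without H2BC12.

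All 66 members together summed to 29.98 ± 2.30 CPM in non-treated, 36.0 ± 2.88 in ATRA-treated, 27.7 ± 1.94 in CDK4/6i-treated and 99.3 ± 5.25 CPM in CDK4/6i+ATRA-treated cells. As a ratio to the non-treated mean this was 0.924 for CDK4/6i and 3.31 for the combination, and without H2BC12 it was 0.532 and 1.79. The H2B family went from 13.0 ± 1.26 to 73.7 ± 3.90 CPM under the combination, where H2BC12 held 2008 of 2528 counts, and without H2BC12 from 5.79 ± 0.805 to 15.2 ± 1.37 CPM. H2A genes went from 3.87 ± 0.919 to 9.79 ± 1.52 CPM, where H2AC6 held 305 of 336 counts. H3 genes, for which no member was tested, went from 1.94 ± 0.554 CPM in non-treated to 1.08 ± 0.36 with CDK4/6i and 1.42 ± 0.593 CPM with CDK4/6i+ATRA. H1 and H4 genes were at 0.455 ± 0.123 and 0.506 ± 0.0552 of the non-treated sum with CDK4/6i, and at 1.12 ± 0.126 and 1.49 ± 0.288 with CDK4/6i+ATRA. Under the combination the H4 genes without H4C15 stood at 0.606 ± 0.189, the H1 genes without H1-2 at 0.418 ± 0.253 and the H2A genes without H2AC6 at 0.304 ± 0.246 of their non-treated sums. By position, the cluster at 27.1 to 27.9 Mb, which holds H2BC12, stood at 4.90 ± 0.283 of its non-treated sum with CDK4/6i+ATRA and at 0.52 ± 0.0931 without H2BC12, the cluster at 25.7 to 26.3 Mb at 2.09 ± 0.0874 and the chromosome 1 cluster at 2.57 ± 0.441.

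H2A and H2B genes often lie head to head, and 11 such pairs were found with starts at most 500 bases apart. The partners of a pair share a promoter region, and the difference between their courses was not tested. H2AC6 and H2BC4, 246 bases apart, were both at their highest with CDK4/6i+ATRA, with 46, 79, 56 and 305 counts for H2AC6 and 58, 67, 56 and 172 for H2BC4 over the 3 libraries each of non-treated, ATRA, CDK4/6i and CDK4/6i+ATRA. H2BC12 and H2AC12, 248 bases apart, had 361, 499, 826 and 2008 counts for H2BC12 and 12, 19, 6 and 2 for H2AC12 in the same order. H2BC21 and H2AC20, 236 bases apart, had 27, 50, 19 and 102 counts against 15, 18, 5 and 4. In all 3 of these pairs the H2B gene was annotated past the stem-loop and the H2A gene ended at it. H2AC17 and H2BC17, both ending at the stem-loop, had 38, 18, 1 and 4 counts and 18, 16, 3 and 2 counts. H2AC8 and H2BC8 had 27, 14, 4 and 4 counts and 14, 15, 0 and 4 counts. H2BC15 and H2AC15, 194 bases apart and also both ending at the stem-loop, had 22, 16, 52 and 24 counts against 3, 5, 5 and 3.

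Some members were chosen as abundant in their family or known to make a polyadenylated mRNA, but held few counts. H2BC11, at 22, 23, 9 and 14 counts in the same order of groups, had a ratio to non-treated cells of 0.391 with CDK4/6i (95% counting interval 0.158 to 0.882) and 0.936 with CDK4/6i+ATRA (0.443 to 1.91). H3C11, at 18, 21, 11 and 3 counts, had ratios of 0.583 (0.249 to 1.3) and 0.245 (0.0463 to 0.84). H2AC11 held 20, 14, 6 and 5 counts and H2AC18 held 0, 0, 2 and 3, while H1-1 and H1-5 held 1 count each over all libraries and H2AC19 none.

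Genes known to make or process histone mRNA were read from a list of 25, of which 24 were tested. Against non-treated cells 4 were higher and 13 lower under ATRA, 1 and 15 under CDK4/6i, and 6 and 18 under the combination. Of all genes tested, 32.1% and 35.5%, 28.3% and 27.9%, and 41% and 40.7% were called in these directions. Under the combination the median log2 fold change was -0.53, against 0.02 for all genes. SLBP stood at 178, 181 and 170 CPM in non-treated, 120, 126 and 124 in ATRA-treated, 70.0, 74.0 and 74.3 in CDK4/6i-treated and 37.9, 38.0 and 38.8 CPM in CDK4/6i+ATRA-treated cells, with no overlap between groups. It fell in each comparison with non-treated cells, by -2.20 with CDK4/6i+ATRA (adjusted p = 9.68e-39, edgeR). CASP8AP2 (FLASH), which binds NPAT and the processing machinery, fell from 51.0 ± 1.79 CPM to 19.5 ± 1.24 under CDK4/6i and 14.6 ± 2.52 under the combination. NPAT itself fell from 32.1 ± 1.73 to 22.2 ± 1.23 CPM with CDK4/6i (-0.54, adjusted p = 1e-08) and was at 28.8 ± 1.08 CPM with CDK4/6i+ATRA (-0.16, adjusted p = 0.0439). The latter call was lost without non-treated replicate 1 or 3 (adjusted p = 0.0659 and 0.138) or CDK4/6i+ATRA replicate 2 or 3 (adjusted p = 0.0523 and 0.15), and in DESeq2 (adjusted p = 0.114). LSM11 and ZNF473, parts of the U7 machinery, fell with CDK4/6i+ATRA to 11.4 ± 0.877 and 9.17 ± 1.15 CPM, from 35.01 ± 0.835 and 19.3 ± 2.57 CPM, and did not pass with CDK4/6i (0.10 and 0.05). LSM10, also of that particle, rose with CDK4/6i+ATRA (0.47, adjusted p = 1.94e-07). ERI1, a nuclease that trims the stem-loop end, fell to 9.72 ± 0.657 CPM, and the CDK2 and CCNE1 messages to 5.75 ± 0.974 and 1.58 ± 0.536 CPM from 65.8 ± 1.74 and 39.5 ± 0.973 CPM.

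**Figure D4:**
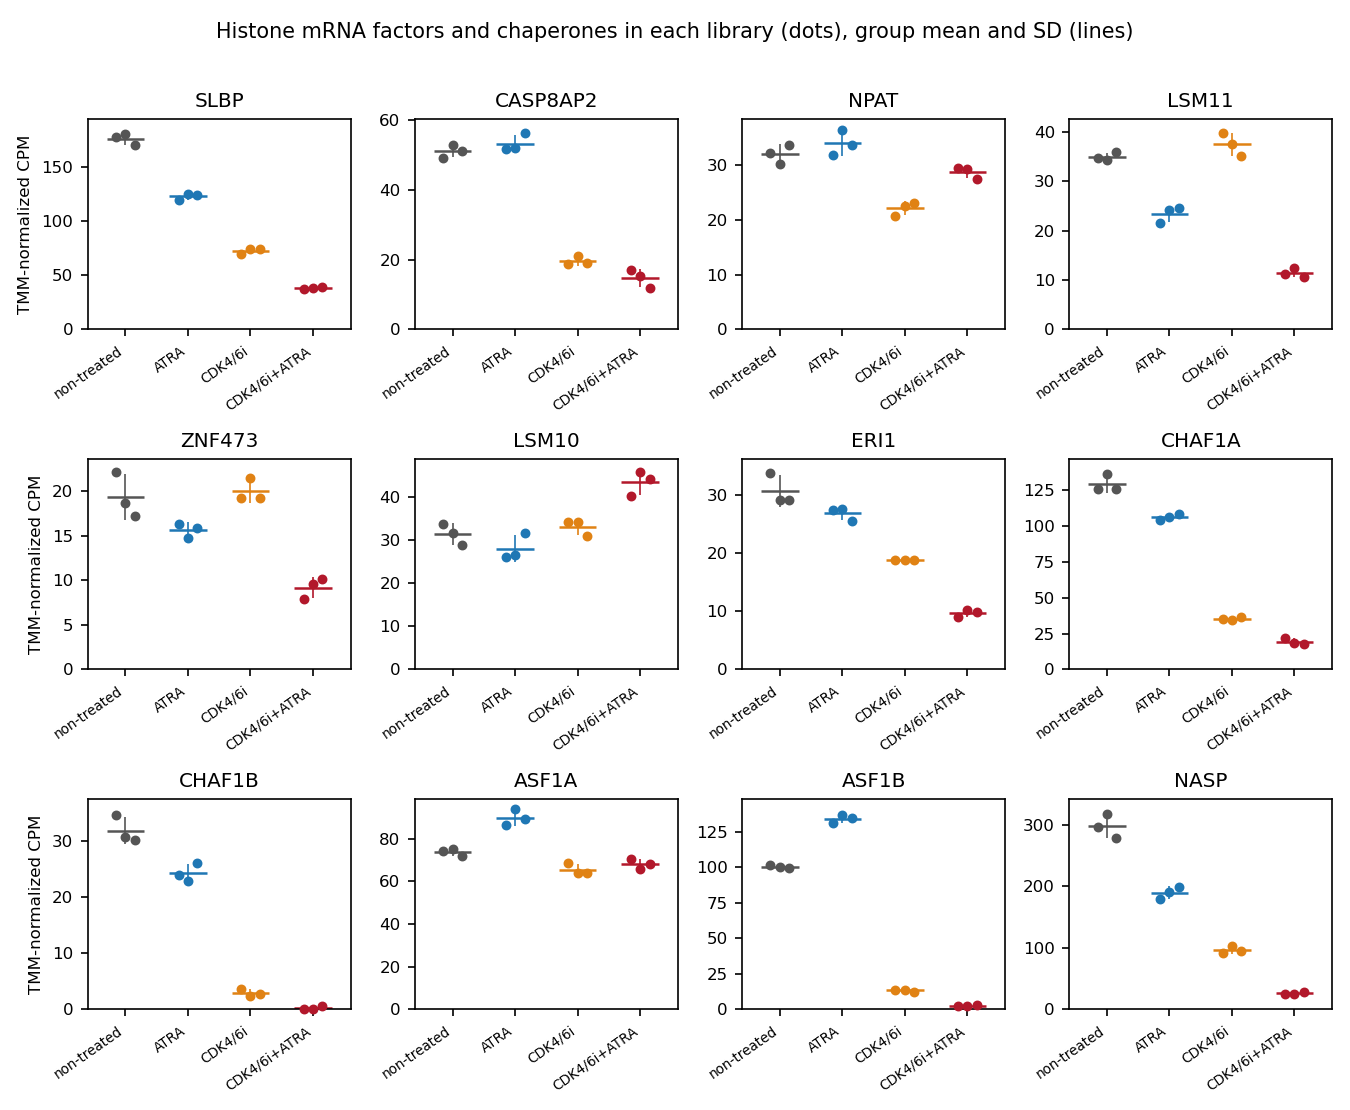
TMM-normalized CPM (y axis) of 7 histone mRNA factors and 5 histone chaperones in each library (dots) of the 4 groups (x axis), with mean and SD as lines. SLBP, CASP8AP2, ERI1, CHAF1A, CHAF1B, ASF1B and NASP lie lowest with CDK4/6i+ATRA, and LSM10 lies highest there.

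In a list of histone chaperones and factors that work with them, 14 of 15 tested genes fell under CDK4/6i and all 15 under the combination. The median log2 fold changes were -0.95 and -2.13. The median over all genes was 0.02 in both comparisons, and 27.9% and 40.7% of all genes were lower. NASP, which stores H3 and H4, went from 298 ± 19 CPM in non-treated to 190 ± 10.6 in ATRA, 96.2 ± 5.81 in CDK4/6i and 25.9 ± 1.58 CPM in CDK4/6i+ATRA libraries. CHAF1A and CHAF1B, subunits of chromatin assembly factor 1, went from 130 ± 6.07 to 19.4 ± 2.15 CPM and from 31.8 ± 2.42 to 0.223 ± 0.311 CPM under both drugs. For CHAF1B the log2 fold change of -7.04 was -9.23 without CDK4/6i+ATRA replicate 3. ASF1B fell to 2.59 ± 0.343 CPM from 101 ± 1.25, whereas its paralog ASF1A was at 73.6 ± 1.67 CPM in non-treated and 68.1 ± 2.31 CPM in CDK4/6i+ATRA-treated cells (-0.11, adjusted p = 0.04). This call was lost without non-treated replicate 1 or 2 (adjusted p = 0.0593 and 0.0777) or CDK4/6i+ATRA replicate 2 or 3 (adjusted p = 0.135 and 0.0641), and in DESeq2 (adjusted p = 0.121). Of 9 tested genes for histone variants that do not depend on replication, 2 rose and 6 fell under the combination relative to non-treated cells, where 81.7% of all genes were called. H3-3A, which encodes the replacement histone H3.3, rose from 390 ± 2.77 to 570 ± 40.9 CPM (0.55, adjusted p = 4.11e-16), and H3-3B rose by 0.12 (adjusted p = 0.00269) but was lower by library size alone (-0.14) and lost its call without the expression filter (0.02, adjusted p = 0.89). The linker variant H1-10 was at 249 ± 5.11 CPM in non-treated, 354 ± 11.4 in ATRA, 72.5 ± 3.48 in CDK4/6i and 116 ± 3.62 CPM in CDK4/6i+ATRA libraries. H2AZ1 fell from 924 ± 38.4 to 151 ± 14.1 CPM, H2AX from 9.42 ± 1.40 to 0.619 ± 0.196 CPM and the centromeric CENPA from 38.4 ± 1.85 to 0.808 ± 0.316 CPM. DNA replication enzymes fell in all 18 tested genes, with a median log2 fold change of -2.42 for CDK4/6i and -4.74 for the combination, against 0.02 for all genes in each.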

How the data were processed

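Total RNA of HL-60 cells was prepared with a directional kit and sequenced on a NovaSeq. The authors trimmed reads with Trimmomatic 0.33, aligned them to hg38 with STAR 2.7.11a and deposited raw counts per RefSeq gene, as whole numbers without normalization. The paper names RSEM, but the deposited table has the layout of featureCounts. Poly(A) selection, strand setting and handling of multiply mapped reads are not given in the sources used here.

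Genes were filtered with filterByExpr, which kept 13318, and library sizes were scaled by TMM. The 4 groups were compared by the quasi-likelihood test of edgeR (version 4.0.16, under R 4.3.3) with 8 residual degrees of freedom, and p-values were adjusted over all tested genes by Benjamini-Hochberg at 0.05. The SE is the size of the log2 fold change over the root of F. DESeq2 1.42.0 was an alternative, and the test was checked on simulated counts. Intervals are exact at 95% and cover counting error only, and a group at 0 was set to 3 counts. Stem-loops and shared 75-base windows were read from hg38 at the table's exons, and promoters came from RefSeq. Members and lists were chosen with earlier results of these data known. Named members were the 4 most abundant per family, the 3 largest changes each way at 1 CPM or more, and genes known for polyadenylated forms. Others were named after their values were seen. H4C16 is listed as H4-16, outside the rule. One item is not reported here.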

Additional observations from a re-analysis of the deposited data

Results flagged for a closer look

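The effect of ATRA differed between cells with and without CDK4/6i in 7 of the 12 histone genes tested, against 51.4% of all genes tested, by the test of the interaction between the drugs (quasi-likelihood test of edgeR, Benjamini-Hochberg adjusted p from 2.8e-12 to 0.0055). The log2 interaction was 1.13 for H1-2, 2.32 for H2AC6, 1.47 for H2BC12, 2.17 for H2BC21, 2.06 for H2BC4, 1.38 for H2BC5 and 3.13 for H4C8. In H4C8 it rests on 6 counts over the CDK4/6i libraries and 39 over the CDK4/6i+ATRA libraries, the group through which alone it passed the expression filter, and without it the count is 6. The groups had 3 samples each, so single samples were not screened for outlying values.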

How the results depend on the processing

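Of 72 results on single histone genes, 58 kept their side of the threshold under every alternative tried for them. Over the 72 results together there were 1442 alternative values, of which 29 lost and 12 gained a call. None of the 46 called values changed sign, and 9 of the 26 others did under at least 1 alternative. Without the expression filter, 15 members were called for CDK4/6i and 16 for the combination against non-treated cells, in place of 7 and 10, as more members were tested. With at least 10 counts in every library, 3, 4, 5, 4 and 4 of the 5 members tested were called for CDK4/6i and the combination against non-treated cells, the combination against CDK4/6i and against ATRA, and the interaction, since fewer were tested. Leaving out 1 library, with the filter applied anew, gave 3 to 5 calls for ATRA, 7 to 10 for CDK4/6i, 11 to 13 for CDK4/6i+ATRA, 8 to 11 and 10 to 12 for CDK4/6i+ATRA against CDK4/6i and ATRA, and 7 to 8 interactions. Over the 13651 to 13739 genes tested in these fits, 8613 to 9161, 7000 to 7620, 10678 to 11102, 10225 to 10657, 8909 to 9425 and 6503 to 6693 were called, in the same order. Calls of H2AC17, H3C12 and H3C4, which did not pass the filter with all libraries, are among those of the members. The filter then kept 14 or 15 members, and the calls split into 3 to 5 higher and 0 to 1 lower for ATRA, 1 to 3 and 5 to 7 for CDK4/6i, and 7 to 8 and 3 to 5 for CDK4/6i+ATRA. The ratio of summed CPM ranged over these from 1.15 to 1.24, 0.886 to 0.956 and 3.18 to 3.41. The ratio for CDK4/6i+ATRA was 2.76 by library size alone, and without H2BC12 the ratios were 0.532 for CDK4/6i and 1.79 for CDK4/6i+ATRA. Without the filter, the calls of H2AC6 for ATRA (adjusted p = 0.0523) and of H2BC15 and H4C15 for CDK4/6i (0.0554 and 0.0592) were lost, and with only the groups compared H4C15 was lost for CDK4/6i (0.0507) and H2BC21 gained for ATRA (0.0468). H3-3B was the one other named gene to turn, to -0.14 by library size alone, and it lost its call without the filter (0.02, adjusted p = 0.89). With the replicate number as a block, the calls were 4, 7, 10, 8, 10 and 7, as without it, and same-numbered samples deviated with correlations of -0.338 to 0.184, so the numbers do not pair the samples.

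At 422 to 1254 histone counts per library, changes of single untested members below about the width of their counting intervals were not detectable, and near-identical copies and overlapping genes limit which gene a count belongs to.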
